A study of Drosophila melanogaster with 18 samples.

Results

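Tudor-SN knockdown flies were compared with control flies after both had spent 6 h in 2% oxygen. The comparison rests on 6 of the 18 RNA libraries of the series, chosen by their titles: 3 knockdown libraries and 3 control libraries at 2% O2, across all genes. Knockdown flies carried the driver Da-GAL4 over the transgene UAS-Tudor-SN RNAi in a w background, so that daughterless-GAL4, active in most tissues, switches on a hairpin against Tudor-SN. Control flies carried a + chromosome in place of the driver (w;;+/UAS-Tudor-SN RNAi), and thus had the same hairpin transgene (Bloomington stock 34865) without a driver. All were females of 1 to 5 days, kept at 25 °C on a mashed potato diet, and each library came from a pool of 10 whole flies. No driver-only group was analysed here, and effects of the driver and of the loss of Tudor-SN cannot be told apart. In whole flies, fewer cells of a type and less RNA per cell cannot be told apart either.

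Tudor-SN, also known as SND1 in mammals, is a conserved RNA-binding protein with staphylococcal nuclease-like domains and a Tudor domain. It was found in the RNA-induced silencing complex, the machinery that silences messages through small RNAs, and it gathers in stress granules, where messages are held when translation is shut down. Low oxygen is one stress that calls on such responses, together with heat-shock chaperones, the hypoxia-inducible factor Sima and a shift of energy metabolism away from mitochondria.

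The deposited values were FPKM, fragment counts divided by gene length and by the library's total, which put genes of different length on one scale. They were divided by 1 scaling factor per library, 0.947 to 0.977 in knockdown libraries and 0.979 to 0.998 in control libraries, so the scaling goes along with genotype. Levels below are scaled FPKM, and differences are log2 differences of scaled FPKM plus 1, knockdown minus control, ± SE with 3 libraries per group, which understate the change of low genes. A gene was called where limma gave a Benjamini-Hochberg adjusted p under 0.05. Read totals are not part of these values. Low values, each taken as about 1 read, put relative depth at 0.962 to 1.00 in 5 of the libraries and at 0.874 in knockdown replicate 3. That replicate lay apart from replicates 1 and 2 on the second principal component of all 18 libraries (0.95 against -15.5 and -16.8). It was shifted toward the control libraries at 2% O2, which stood at 11.6, 9.94 and 13.5. Within the 6 libraries the first component (47.1% of the variance) separated the genotypes.

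Tudor-SN itself (FBgn0035121, BDGP6 3L:259043-264380) stood at 6.06, 5.43 and 5.2 scaled FPKM in the knockdown libraries and at 174, 161 and 168 scaled FPKM in the control libraries. The groups were far apart, and the knockdown mean was 3.32% of the control mean. The log2 difference was -4.68 ± 0.08 (limma adjusted p = 8.97e-16). A 2-sided exact permutation test gave p = 0.1, the smallest that 3 against 3 libraries allow. In normoxia Tudor-SN averaged 19.9 scaled FPKM in knockdown flies and 214 in control flies, and at 6% O2 15.9 and 217. Its genotype difference at 2% O2 was more negative than in normoxia, by -1.32 ± 0.11 (limma adjusted p = 2.74e-05). Genotype differences set side by side between oxygen levels below thus come from unequal knockdowns.

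Of 9921 genes tested, 2000 differed between knockdown and control flies at 2% O2 (20.2%). Of these, 1157 were higher (11.7%) and 843 lower (8.5%) in knockdown flies, and 98 (0.988%) and 60 (0.605%) of all genes were called with at least a 2-fold difference. The counts of each gene list below are to be read beside the shares of 11.7% higher and 8.5% lower. Knockdown and control libraries did not overlap for 1900 called genes (19.2%) and for 35.1% of all genes tested. Most called genes were thus without overlap, and the 12 largest changes each way were named only among genes without it. The balance of directions depended on scaling: of the called genes 57.9% were higher in knockdown flies, against 43.6% with FPKM as deposited and 48.2% after quantile normalisation. The count was 1204 without control replicate 1, 1360 without control replicate 3 and 1979 without knockdown replicate 3. By the genotype labels both the driver and the hairpin transgene lie on chromosome 3. Called genes made up 20.5% of those tested on 3L and 19.2% on 3R, against 17.6% on X, 20.9% on 2R and 22.6% on 2L.

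**Figure D1:**
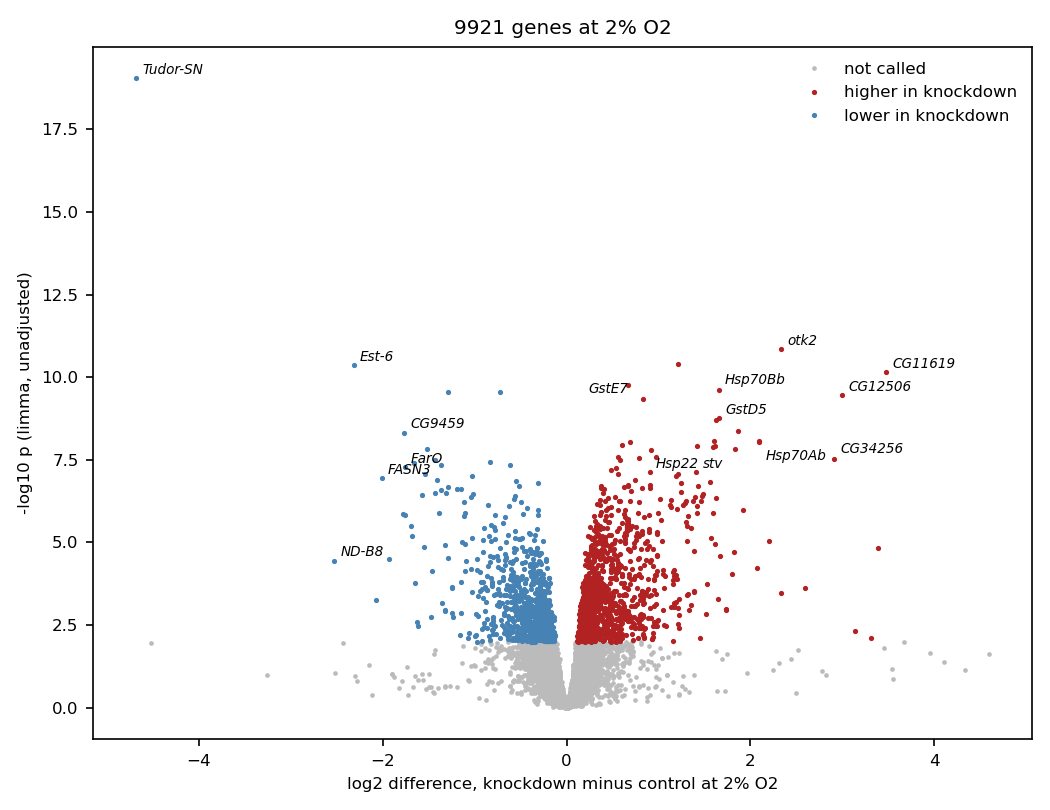
Each point is 1 of the 9921 genes tested, with the log2 difference between knockdown and control flies at 2% O2 on the x axis and -log10 of the unadjusted limma p on the y axis. The called genes spread to both sides, 1157 higher and 843 lower in knockdown flies, and Tudor-SN lies at the far left at -4.68.

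Inducible chaperones of the Hsp70 family were higher in every knockdown library than in any control library. Hsp70Ba (3R:12465453-12467776), an Hsp70 chaperone that refolds damaged proteins and is nearly silent without stress, was at 52.6, 55.6 and 57.5 scaled FPKM in knockdown flies and at 16.3, 14.8 and 21.1 scaled FPKM in control flies. The groups did not overlap, the means differed 3.18-fold, and the log2 difference was 1.63 ± 0.13 (limma adjusted p = 1.49e-06). All 7 inducible Hsp70-family genes tested were called higher (median log2 difference 1.63, against 0.00 over all genes tested), by 1.42 to 2.10, and 7 were called whichever library was left out. Because the Hsp70 copies are nearly identical, the share of reads given to each copy is uncertain. Hsp70Aa, one of the copies, averaged 161 scaled FPKM in knockdown flies and 37.6 in control flies.

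Among 8 small heat-shock proteins, which hold unfolding proteins in solution, 5 were called higher and 0 lower at 2% O2. Hsp23 was at 184, 181 and 169 scaled FPKM in knockdown libraries and at 55.1, 69.3 and 93.8 in control libraries, a log2 difference of 1.31 ± 0.20 (limma adjusted p = 0.000375). Hsp67Bc (1.33 ± 0.18, adjusted p = 0.000116) and the mitochondrial Hsp22 (0.91 ± 0.10, adjusted p = 1.85e-05) also rose, and so did Hsp26 (0.45 ± 0.10, adjusted p = 0.00708), whose call was lost with quantile normalisation (adjusted p = 0.0653). Of 17 co-chaperones and related genes, Hsf included, 6 were higher and 1 lower, and 3 were higher without control replicate 1, control replicate 3 or knockdown replicate 2. The BAG-domain co-chaperone stv was at 86.0, 88.3 and 91.3 scaled FPKM in knockdown libraries, against 29.3, 31.9 and 37.1 in control libraries. These groups were well apart (log2 difference 1.41 ± 0.15, adjusted p = 1.85e-05). Smaller rises were called for the Hsp40 gene DnaJ-1 (0.41 ± 0.07, adjusted p = 0.000569) and for Hsf, the transcription factor of the heat-shock response (0.28 ± 0.07, adjusted p = 0.0107).

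In normoxia fewer of these chaperones were called, and of the small heat-shock genes 0 were higher and 2 lower. Hsp70Ba averaged 0.433 scaled FPKM in knockdown flies and 0.421 in control flies there, and 1 of the 7 Hsp70-family genes, Hsp70Bb, was called (16.0% of all genes tested were called in normoxia). The difference between the 2 genotype differences, 2% O2 minus normoxia, was tested directly and was called for 758 genes (7.64%). Of these 71.1% were more positive at 2% O2, against 58.8% with FPKM as deposited and 44.8% after quantile normalisation. Among the 758 were all 7 Hsp70-family genes, with Hsp70Ba at 1.61 ± 0.19 (limma adjusted p = 0.000221), and 4 small heat-shock genes, with Hsp22 at 1.40 ± 0.13 (adjusted p = 5.84e-05). The same difference against 6% O2 was called for 934 genes (9.41%). The count of 758 moved to 332 without control 2% O2 replicate 1, to 456 without knockdown 2% O2 replicate 3 and to 1302 without knockdown 2% O2 replicate 2. Leaving out 1 normoxia library gave 366 to 1039.

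**Figure D2:**
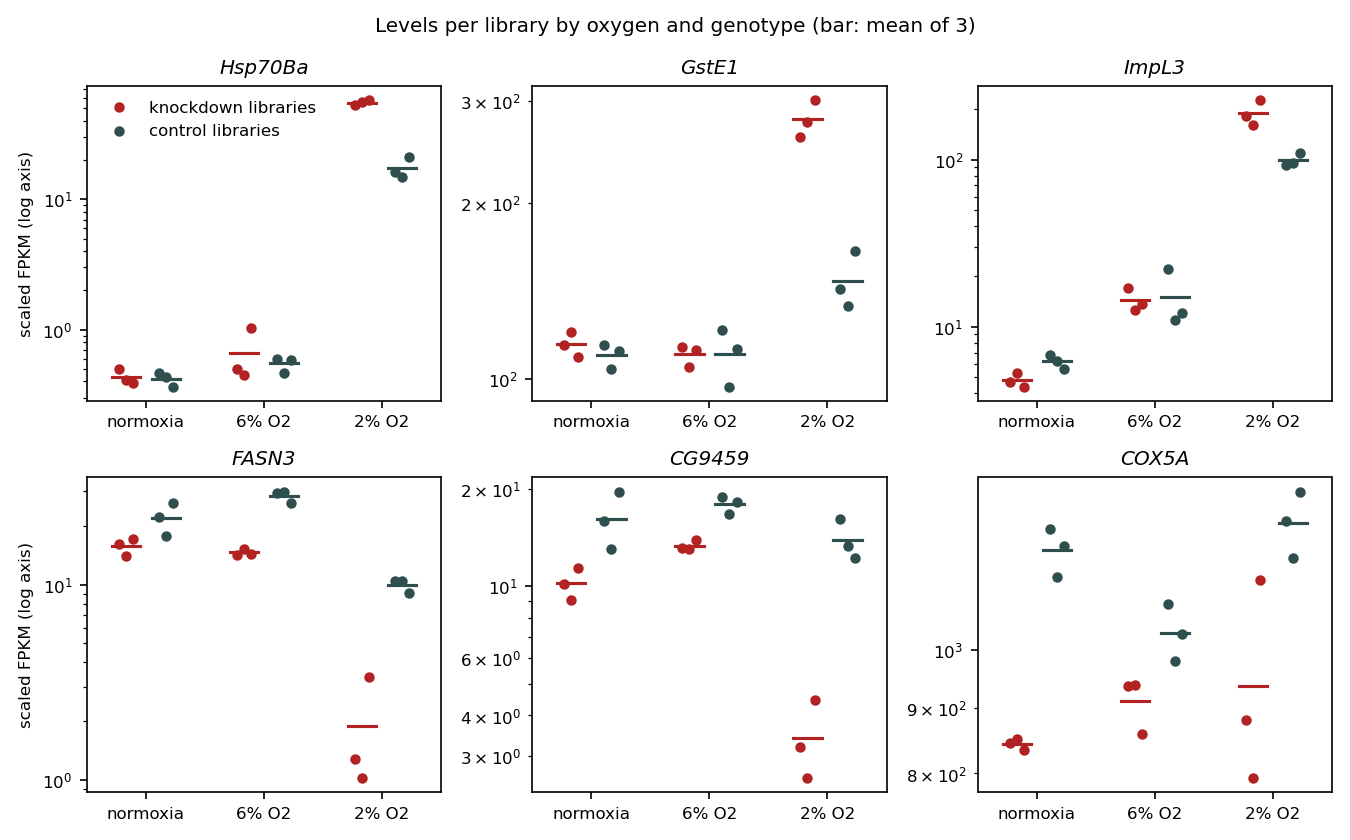
Scaled FPKM (log axis) of 6 genes in each of the 18 libraries, by oxygen level from normoxia to 2% O2, with knockdown points left of control points. Hsp70Ba, GstE1 and ImpL3 lie higher in knockdown than in control flies at 2% O2, while FASN3, CG9459 and COX5A lie lower.

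Glutathione S-transferases, enzymes that couple glutathione to reactive and foreign compounds, formed another group with higher levels in knockdown flies. In the Delta class, whose genes sit together on 3R, 7 of 8 tested members were called higher and 0 lower (median log2 difference 0.86), with 7 called whichever library was left out. GstD5 (3R:12375733-12376572) was at 24.4, 25.3 and 27.0 scaled FPKM in knockdown libraries and at 6.25, 7.40 and 8.74 in control libraries. Its groups did not overlap, and the log2 difference was 1.66 ± 0.13 (limma adjusted p = 1.43e-06). The others named here were GstD10 (1.40 ± 0.17, adjusted p = 5.29e-05), GstD9 (0.90 ± 0.10, adjusted p = 3.56e-05) and GstD3 (0.60 ± 0.06, adjusted p = 5.50e-06). In normoxia 3 of the 8 were also higher and 0 lower (5.9% and 10.1% of all genes), and at 6% O2 2 were higher. GstD3 (0.29, adjusted p = 0.00387) and GstD10 (0.60, adjusted p = 0.0265) were higher in normoxia. For GstD10 the difference between 2% O2 and normoxia was not called (adjusted p = 0.0522).

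In the Epsilon class, 7 of 14 members were higher and 0 lower at 2% O2, whereas in normoxia 0 were higher and 4 lower. GstE1 was at 259.6, 276 and 300.3 scaled FPKM in knockdown libraries and at 143, 133 and 165 in control libraries, again without overlap (log2 difference 0.92 ± 0.09, limma adjusted p = 6.14e-06). GstE3 (1.31 ± 0.18, adjusted p = 0.000196), GstE7 (0.83 ± 0.06, adjusted p = 4.10e-07) and GstE6 (0.25 ± 0.04, adjusted p = 0.00031) rose as well. In normoxia GstE3 averaged 17.6 scaled FPKM in knockdown flies and 26.8 in control flies. The genotype difference was more positive at 2% O2 than in normoxia for 5 Epsilon and 5 Delta genes and more negative for 0 of them (5.43% and 2.21% of all genes).

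Of 23 antioxidant genes 6 were called higher and 2 lower. The peroxiredoxins Prx2540-1 and Prx2540-2, near-identical neighbours whose reads may have been split between them, averaged 188 and 227 scaled FPKM in knockdown flies and 60.0 and 80.0 in control flies. Their log2 differences were 1.60 ± 0.20 (limma adjusted p = 0.000108) and 1.47 ± 0.17 (adjusted p = 5.06e-05). Gclm, the modifier subunit of the enzyme that starts glutathione synthesis, rose by 0.33 ± 0.05 (adjusted p = 0.000179). ref(2)P, the fly p62, a receptor for cargo of autophagy, rose by 0.38 ± 0.04 (adjusted p = 3.26e-05). Of 23 autophagy genes 5 were higher and 2 lower.

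Cytochrome P450 genes went both ways, 14 of 70 higher and 7 lower. The near-identical pair Cyp12d1-p and Cyp12d1-d, enzymes of a family induced by foreign compounds, averaged 51.3 and 55.8 scaled FPKM in knockdown flies and 21.5 and 23.8 in control flies (log2 differences 1.21 ± 0.13 and 1.19 ± 0.13, limma adjusted p = 1.93e-05 and 2.10e-05). Cyp6a9 (-1.04 ± 0.12, adjusted p = 5.06e-05) and Cyp6a18 (-1.29 ± 0.15, adjusted p = 3.50e-05) fell. The split of this family rested on single libraries: without knockdown replicate 3 it was 6 higher and 12 lower, without control replicates 1, 2 and 3 it was 9, 8 and 8 higher, and without knockdown replicate 1 it was 8 higher. In normoxia 2 P450 genes were higher and 21 lower.

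Among 35 glucuronosyltransferases, esterases and other detoxification genes 6 were higher and 3 lower (4 and 6 without knockdown replicate 3). Est-6, a secreted carboxylesterase, was at 6.12, 4.48 and 7.78 scaled FPKM in knockdown libraries and at 34, 30.6 and 37.3 in control libraries. The groups were widely separated (log2 difference -2.32 ± 0.14, limma adjusted p = 1.07e-07), and the difference in normoxia was -2.36. alpha-Est10 rose by 0.89 ± 0.19 (adjusted p = 0.00392) at 2% O2, where the normoxia difference was 0.01.

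Of 13 genes of oxygen sensing and the Sima response 5 were higher and 1 lower in knockdown flies. ImpL3, lactate dehydrogenase, which lets glycolysis run without mitochondria, was at 182, 162 and 226 scaled FPKM in knockdown libraries and at 93.0, 95.5 and 109.9 in control libraries. All knockdown values lay above all control values (log2 difference 0.92 ± 0.20, limma adjusted p = 0.0053). In normoxia ImpL3 averaged 4.79 scaled FPKM in knockdown flies and 6.21 in control flies, and at 6% O2 14.4 and 15.0. Pdk, the kinase that shuts pyruvate out of the mitochondrial cycle, rose by 0.58 ± 0.06 (adjusted p = 1.03e-05). Hph, the prolyl hydroxylase that marks Sima for destruction in normal oxygen and is itself a Sima target, rose by 0.43 ± 0.06 (adjusted p = 0.000116). scyl, an inhibitor of TOR signalling, rose by 0.36 ± 0.06 (adjusted p = 0.000904). The genotype difference at 2% O2 exceeded that in normoxia for ImpL3 (by 1.23 ± 0.28, adjusted p = 0.0186), Pdk (0.56 ± 0.08, adjusted p = 0.00124) and Hph (0.33 ± 0.08, adjusted p = 0.0233).

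Among 9 genes of tracheal branching by FGF, 2 were higher and 1 lower. bnl, the FGF ligand that draws air tubes toward oxygen-starved tissue, was at 16.8, 16.2 and 19.8 scaled FPKM in knockdown libraries and at 9.29, 10.6 and 10.7 in control libraries. These values do not overlap (log2 difference 0.73 ± 0.12, limma adjusted p = 0.000509). sty, the feedback inhibitor of FGF signalling, rose by 0.65 ± 0.14 (adjusted p = 0.00541), and vvl, a transcription factor of tracheal cells, fell by 0.73 on the log2 scale (adjusted p = 0.00496).

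JNK pathway genes, which respond to tissue and oxidative stress, had 6 of 16 members higher and 0 lower, with 3 higher without control replicate 1. Ets21C, a transcription factor, was at 17.5, 12.3 and 15.6 scaled FPKM in knockdown libraries and at 5.67, 7.79 and 8.69 in control libraries, with no overlap (log2 difference 0.95 ± 0.19, limma adjusted p = 0.00252). puc, the phosphatase that switches JNK off, rose by 0.60 ± 0.08 (adjusted p = 0.000172), and Jra, the fly Jun, by 0.38 ± 0.04 (adjusted p = 3.52e-05). Gadd45 rose by 0.68 ± 0.18 (adjusted p = 0.0138), a call lost without control replicate 1 (adjusted p = 0.0689). Socs36E, a feedback inhibitor of JAK/STAT signalling, was at 38.0, 31.7 and 33.2 scaled FPKM in knockdown libraries, against 14.2, 18.4 and 20.1 in control libraries (0.94 ± 0.17, adjusted p = 0.00126).

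Of 26 genes of the Imd and Toll immune pathways 8 were higher and 3 lower, and the lower ones numbered 0 without knockdown replicate 1 and 1 without knockdown replicate 2. pirk, an inhibitor of Imd signalling, was at 16.5, 15.8 and 14.7 scaled FPKM in knockdown libraries and at 5.20, 4.62 and 6.57 in control libraries (log2 difference 1.38 ± 0.17, limma adjusted p = 6.03e-05). The adaptor imd (0.67 ± 0.11, adjusted p = 0.000569) and the recognition protein PGRP-SD (1.53 ± 0.31, adjusted p = 0.00303) rose too. The antimicrobial peptides themselves varied widely between libraries of a group. CecA1 was at 98.7, 4.97 and 9.42 scaled FPKM in knockdown libraries and at 1.49, 0.788 and 0.412 in control libraries. Its values did not overlap, but the call (3.31 ± 1.0, adjusted p = 0.0406) was lost without any single control library or without knockdown replicate 1 (adjusted p 0.0802 to 0.146). AttA, another antimicrobial peptide, overlapped between groups, at 106, 13.1 and 39.6 scaled FPKM in knockdown libraries and 4.19, 19.9 and 3.61 in control libraries (adjusted p = 0.138). Of 14 such peptides 1 was called, 1 in the lower direction without knockdown replicate 1, 0 without any single control library, 4 without knockdown replicate 2 and 5 without replicate 3. Of 17 Bomanin and related peptides 0 were called by limma, with 2 at an unadjusted p under 0.05.

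The stress peptides of the Turandot and Frost group did not pass the test, with 0 of 5 called by limma and 2 at an unadjusted p under 0.05. Fst was at 189, 196 and 239.9 scaled FPKM in knockdown libraries and at 51.8, 70.0 and 81.5 in control libraries (log2 difference 1.62 ± 0.61, limma adjusted p = 0.079). TotA averaged 95.7 scaled FPKM in knockdown flies and 98.6 in control flies, with overlapping values.

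Nuclear-encoded subunits of mitochondrial respiration were lower in knockdown flies. Of 34 complex I subunits tested 23 were called lower and 0 higher (median log2 difference -0.33), and of 36 subunits of complexes III, IV and V 25 were lower and 1 higher (median -0.39). ND-B8, a complex I subunit (2L:4454626-4455207), was at 29.6, 13.5 and 21.8 scaled FPKM in knockdown libraries and at 125, 111 and 136 in control libraries, and its log2 difference of -2.52 ± 0.41 (limma adjusted p = 0.000973) stood far from the -0.82 ± 0.11 of ND-B14 (adjusted p = 0.000192). COX5A, a complex IV subunit, was at 881, 793 and 1135 scaled FPKM in knockdown libraries and at 1264, 1181 and 1331 in control libraries. Knockdown replicate 3 came closest to the control range without reaching it (-0.44 ± 0.09, adjusted p = 0.00439). ND-23 (-0.45 ± 0.08, adjusted p = 0.00106), ATPsynB (-0.47 ± 0.10, adjusted p = 0.0053), ATPsyndelta (-0.41 ± 0.09, adjusted p = 0.00586) and the electron carrier Cyt-c-p (-0.54 ± 0.12, adjusted p = 0.0053) fell too. In a fit of only these 6 libraries the folds were the same, but COX5A (adjusted p = 0.0687), ATPsynB (adjusted p = 0.0766), ATPsyndelta (adjusted p = 0.0719) and Cyt-c-p (adjusted p = 0.0707) were not called. That fit called 5 complex I subunits lower and 0 subunits of complexes III, IV and V. Over all 9921 genes tested it called 397 lower, against 843 in the main fit.

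How many respiration genes passed the test also depended on single libraries. For complex I the lower count was 10 without control replicate 1, 10 without control replicate 3, 13 without knockdown replicate 1 and 9 without knockdown replicate 2, and 33 without knockdown replicate 3. For complexes III, IV and V it was 13, 11, 10, 11 and 33 in the same order. Over all genes tested it was 474, 484, 593, 688 and 893, against 843 with all libraries. The complex I score, the average of its members' log2 levels after centring each gene, was -0.23, -0.43 and 0.06 in knockdown libraries and 0.20, 0.13 and 0.28 in control libraries. In normoxia 32 complex I subunits and 32 of the other subunits were lower, with medians of -0.47 and -0.45. At 6% O2 6 complex I subunits and 0 of the others were lower, with medians of -0.18 and -0.16. Of all 9921 genes tested 1004 were lower in normoxia and 1254 at 6% O2. The difference between the genotype differences at 2% O2 and in normoxia was called for 0 of either set by limma.

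Muscle structural genes were examined beside these values. The summed level of 30 muscle markers was 6490, 6460 and 9820 scaled FPKM in knockdown libraries and 9410, 9100 and 11100 in control libraries, so knockdown replicate 3 overlapped the control libraries. Of the markers 2 were called higher and 3 lower (16.7% in all, against 20.2% of all genes), and 9 lower without knockdown replicate 3. Mf, a myofilament gene, was at 1442, 759 and 2079 scaled FPKM in knockdown libraries and at 2388, 2338 and 2765 in control libraries (log2 difference -0.92 ± 0.27, limma adjusted p = 0.0266). Its call was lost without control replicate 1, control replicate 3 or knockdown replicate 2 (adjusted p 0.0551 to 0.0876), and the lower count of the list was then 0 each time. Whether the amount of muscle RNA plays a part in the lower respiration transcripts was not tested.

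The 21 genes listed for the TCA cycle, the cytosolic Mdh1 included, had 2 members called higher and 5 lower. Without knockdown replicate 3, 18 were lower, against 2 without control replicate 1, control replicate 3, knockdown replicate 1 or knockdown replicate 2. Idh, which makes NADPH from isocitrate, was at 322, 336 and 328 scaled FPKM in knockdown libraries and at 399, 401 and 377 in control libraries (log2 difference -0.25 ± 0.04, limma adjusted p = 0.000381). Mdh1, cytosolic malate dehydrogenase, went the other way (0.23 ± 0.04, adjusted p = 0.000825). Of 12 glycolytic enzymes 3 were lower and 0 higher, among them Pgk (-0.34 ± 0.07, adjusted p = 0.00496). The lower count was 1 without control replicate 1, control replicate 3 or knockdown replicate 1, and 6 without knockdown replicate 3. Of 12 genes of sugar storage and the glycerol phosphate shuttle 2 were higher and 4 lower. AGBE, the glycogen branching enzyme, rose by 0.33 ± 0.07 (adjusted p = 0.00409), and Gpdh, glycerol-3-phosphate dehydrogenase, fell by 0.55 on the log2 scale (adjusted p = 0.00685). With only these 6 libraries in the fit, neither Pgk (adjusted p = 0.0611) nor Gpdh (adjusted p = 0.0772) was called, and of the glycolytic enzymes 0 were.

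**Figure D3:**
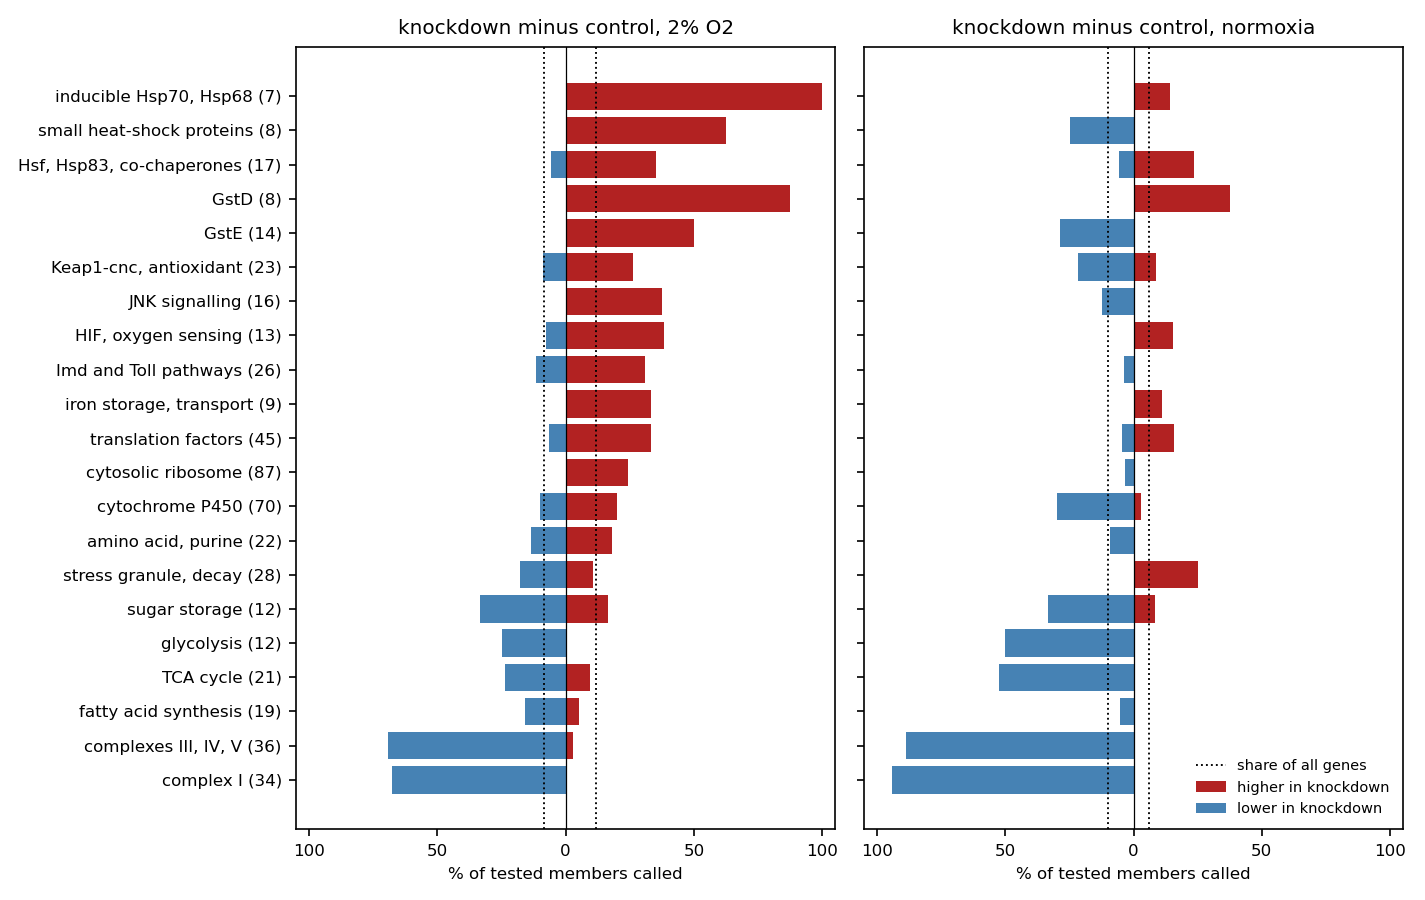
Percent of tested members called higher (bars to the right) and lower (bars to the left) in knockdown than in control flies for 21 gene lists, at 2% O2 (left panel) and in normoxia (right panel), with dotted lines at the shares over all genes (11.7% higher and 8.5% lower at 2% O2). All 7 inducible Hsp70-family genes and 7 of 8 Delta-class glutathione transferases were higher at 2% O2, and 23 of 34 complex I subunits were lower.

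Among the most lowered genes were FASN3 and FarO, both known from oenocytes, cells that make lipids of the cuticle. FASN3, a fatty acid synthase (3L:25752859-25762779), was at 1.29, 1.02 and 3.35 scaled FPKM in knockdown libraries and at 10.4, 10.5 and 9.05 in control libraries. The groups did not overlap, and the log2 difference was -2.01 ± 0.21 (limma adjusted p = 2.33e-05). In normoxia the means were closer, 15.7 in knockdown flies and 22.0 in control flies, and the genotype differences at the 2 oxygen levels differed by -1.56 ± 0.30 (adjusted p = 0.00663). FarO, a fatty acyl-CoA reductase, averaged 2.37 scaled FPKM in knockdown flies and 10.3 in control flies (-1.76 ± 0.18, adjusted p = 1.42e-05). Of 19 genes in the list of fatty acid synthesis as a whole, 1 was higher and 3 lower, and 6 lower without knockdown replicate 3. The share called (21.1%) was close to that of all genes (20.2%).

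A run of neighbouring fatty acid elongase genes on 3R fell together. CG9459 (3R:9817428-9818395) was at 3.19, 2.57 and 4.46 scaled FPKM in knockdown libraries and at 16.1, 13.3 and 12.2 in control libraries, without overlap (log2 difference -1.77 ± 0.15, limma adjusted p = 3.13e-06). Its neighbour CG16904 (3R:9815928-9816979) averaged 19.2 scaled FPKM in knockdown flies and 62.9 in control flies (-1.76 ± 0.22, adjusted p = 0.000114). CG9458 (3R:9818914-9819877), a gene chosen after its values were seen, averaged 7.81 and 23.5 (-1.55 ± 0.24, adjusted p = 0.000516). The female hydrocarbon elongase eloF (3R:9814161-9815158) fell less (-0.61 ± 0.17, adjusted p = 0.0238), and its call was lost without control replicate 2, control replicate 3, knockdown replicate 1 or knockdown replicate 2 (adjusted p 0.0623 to 0.0799). The non-coding CR44035 (3R:9810020-9813929) next to it averaged 0.417 scaled FPKM in knockdown flies and 2.55 in control flies (-1.31 ± 0.15, adjusted p = 4.47e-05). Elsewhere in the genome the elongase CG6660 differed by -0.61 ± 0.12 (adjusted p = 0.00228).

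For CG9459, CG16904, CG9458 and CR44035 the genotype difference was more negative at 2% O2 than in normoxia, where the log2 differences were -0.60, -0.35, -0.17 and 0.29. The differences between the oxygen levels were -1.17 ± 0.21, -1.41 ± 0.31, -1.38 ± 0.34 and -1.60 ± 0.22 (limma adjusted p = 0.00511, 0.0161, 0.0253 and 0.000839). For eloF that difference was -0.24 ± 0.25 (adjusted p = 0.573).

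Of 21 genes that release stored fat 4 were called higher and 0 lower, and 3 higher and 1 lower with FPKM as deposited. The share called (19.0%) was close to that of all genes (20.2%). The lipase bmm was at 69.4, 62.4 and 72.2 scaled FPKM in knockdown libraries and at 48.9, 52.8 and 50.1 in control libraries, with no overlap (log2 difference 0.42 ± 0.05, limma adjusted p = 6.04e-05). Lpin, the phosphatidate phosphatase, rose by 0.42 ± 0.09 (adjusted p = 0.00461). Both showed a larger genotype difference at 2% O2 than in normoxia (by 0.34 ± 0.07, adjusted p = 0.0109, and by 0.51 ± 0.13, adjusted p = 0.027).

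Ferritin, the iron store, was higher in knockdown flies. Fer1HCH, its heavy chain, was at 1078, 976 and 1126 scaled FPKM in knockdown libraries and at 729, 695 and 739 in control libraries. The groups lay apart (log2 difference 0.55 ± 0.08, limma adjusted p = 0.000236). Fer2LCH, the light chain, rose by 0.51 ± 0.09 (adjusted p = 0.000893). The loci of the chains overlap on opposite strands and the labels do not say whether strand was kept, so their values are not fully separate. Tsf3, of the transferrin family of iron carriers, rose by 0.60 ± 0.14 (adjusted p = 0.00737), which makes 3 of 9 iron genes higher and 0 lower, 3 whichever library was left out. The copper importer Ctr1B, by contrast, averaged 6.88 scaled FPKM in knockdown flies and 5.90 in control flies at 2% O2 (adjusted p = 0.642), while in normoxia it averaged 37.4 and 8.86. The genotype differences of Ctr1B at the 2 oxygen levels differed by -1.76 ± 0.30 (adjusted p = 0.00377). The metallothionein MtnA overlapped between groups at 2% O2 (0.40 ± 0.21, adjusted p = 0.2).

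Of 22 genes of amino acid and purine metabolism 4 were higher and 3 lower, a balance that turned with FPKM as deposited (4 and 5) and with quantile normalisation (4 and 6). ade2, an enzyme of purine synthesis, was at 103, 89.6 and 112 scaled FPKM in knockdown libraries and at 54.6, 62.9 and 57.6 in control libraries (log2 difference 0.79 ± 0.08, limma adjusted p = 9.50e-06). pug, an enzyme of folate one-carbon metabolism that supplies purine synthesis, averaged 108 scaled FPKM in knockdown flies and 63.2 in control flies (0.77 ± 0.11, adjusted p = 0.000264). Adgf-D, of a family of secreted adenosine deaminases, rose by 0.75 ± 0.12 (adjusted p = 0.000355). The genotype difference of each of the 3 was larger at 2% O2 than in normoxia (adjusted p 0.00218 to 0.0103).

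**Figure D4:**
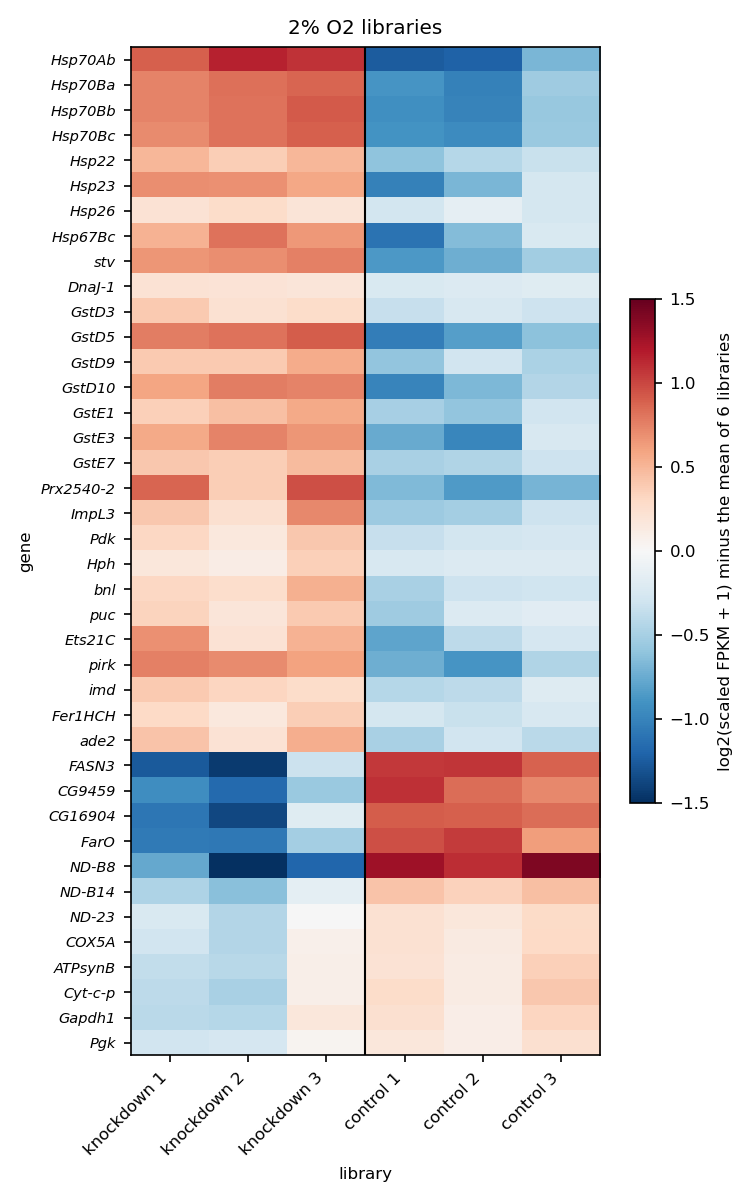
Log2 levels of 40 named genes (rows, each centred on its mean) in the 3 knockdown libraries (left) and the 3 control libraries (right) at 2% O2, with colours saturating at -1.5 and 1.5. Chaperones, glutathione transferases, oxygen-response, immune, iron and purine genes are higher in the knockdown columns, and respiration, fatty acid synthase and elongase genes are lower, with knockdown replicate 3 nearer to the control columns for the respiration genes.

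Cytosolic ribosomal proteins had 21 of 87 members called higher and 0 lower (median log2 difference 0.17), but after quantile normalisation 1 was higher and 2 lower. The share called was 24.1%, where 20.2% of all genes were called and 11.7% were higher. RpL37A, one of them, was at 4016, 4009 and 4582 scaled FPKM in knockdown libraries and at 2977, 3192 and 3039.6 in control libraries (0.45 ± 0.06, limma adjusted p = 0.000167). The count was also 4 without control replicate 1, 5 without control replicate 3 and 7 without knockdown replicate 3. Of 45 translation factors 15 were higher and 3 lower, and 9 were higher without control replicate 1, with FPKM as deposited or with quantile normalisation. Subunits of the initiation factor eIF3 were among those higher: eIF3k (0.40 ± 0.06, adjusted p = 0.000212), eIF3g1 (0.32 ± 0.05, adjusted p = 0.000256) and eIF3l (0.30 ± 0.04, adjusted p = 0.000223). Of 27 genes of the endoplasmic reticulum and its unfolded-protein response 6 were higher and 0 lower (22.2%). Of all genes 20.2% were called and 11.7% were higher. Among the 6 were the stress sensor Ire1 (0.32 ± 0.06, adjusted p = 0.00141) and the oxidase Ero1L (0.36 ± 0.08, adjusted p = 0.00447).

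Genes nearest to the known roles of Tudor-SN were called in both directions. Of 28 genes of stress granules and mRNA decay 3 were higher and 5 lower at 2% O2 (28.6% in all, against 20.2% of all genes). In normoxia 7 were higher and 0 lower (5.9% and 10.1% of all genes). The exosome nuclease Rrp6 (0.25 ± 0.05, limma adjusted p = 0.00245) and Smg5, of nonsense-mediated decay (0.28 ± 0.06, adjusted p = 0.00291), were higher, but Rrp6 was not called with only these 6 libraries in the fit (adjusted p = 0.0532). The granule protein tral was at 418, 465 and 348 scaled FPKM in knockdown libraries and at 558, 472 and 525 in control libraries, so that the nearest values of the groups almost met. Its call (-0.34 ± 0.09, adjusted p = 0.0177) was lost without control replicate 1, control replicate 3 or knockdown replicate 3 (adjusted p 0.0569 to 0.0864) and with quantile normalisation (adjusted p = 0.0832). The exonuclease pcm, the fly XRN1, was lower too (-0.31 ± 0.08, adjusted p = 0.0109), a call lost without control replicate 1 (adjusted p = 0.06). The lower count of the list was then 0, and it was 1 without control replicate 3 or knockdown replicate 3 and 3 without knockdown replicate 1.

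Of 18 genes of the small-RNA silencing complexes, Tudor-SN left out, 1 was higher and 2 lower. The share called (16.7%) was below that of all genes (20.2%). AGO2, the slicer that small interfering RNAs guide, was at 76.4, 73.6 and 78.6 scaled FPKM in knockdown libraries and at 67.9, 68.1 and 69.5 in control libraries. Its call (log2 difference 0.15 ± 0.04, limma adjusted p = 0.0215) was lost without control replicate 1, control replicate 2, knockdown replicate 1 or knockdown replicate 3 (adjusted p 0.0514 to 0.0721), with FPKM as deposited and with quantile normalisation. pasha, the partner of Drosha in microRNA processing, was lower (-0.24 ± 0.06, adjusted p = 0.0154), a call lost without control replicate 1 (adjusted p = 0.0626) or knockdown replicate 3 (adjusted p = 0.0577). Without knockdown replicate 3, 1 gene of the list was higher and 0 were lower.

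Of 27 piRNA-pathway and Tudor-domain genes 4 were higher and 4 lower (29.6% in all, against 20.2% of all genes). tapas, a Tudor-domain protein of piRNA biogenesis, was at 85.0, 86.5 and 79.1 scaled FPKM in knockdown libraries and at 59.7, 58.3 and 60.7 in control libraries, with no overlap (log2 difference 0.48 ± 0.05, limma adjusted p = 1.66e-05). It was also higher in normoxia (0.27, adjusted p = 0.00312) and at 6% O2 (0.34, adjusted p = 0.0007). The germline helicase vas rose by 0.33 ± 0.07 (adjusted p = 0.005). arx, needed for piRNA-guided silencing in the nucleus, fell by 0.47 on the log2 scale (adjusted p = 0.00149). The lower count of the list was 1 without control replicate 2, 2 without control replicate 1 or 3 or knockdown replicate 1 or 3, and the higher count was 2 without control replicate 1 or 2 or knockdown replicate 1.

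Transcripts of egg production differed less firmly. Of 4 yolk genes 2 were called higher. Yp3 was at 2184, 1503 and 2379 scaled FPKM in knockdown libraries and at 911, 1198 and 954 in control libraries, and these groups did not overlap (log2 difference 0.97 ± 0.27, limma adjusted p = 0.0238). Yp2 rose by 0.94 ± 0.30 (adjusted p = 0.0401), and Yp1 did not pass (0.63 ± 0.28, adjusted p = 0.134). Both calls were lost without control replicate 1, control replicate 3, knockdown replicate 1 or knockdown replicate 3 (adjusted p 0.0725 to 0.133), and that of Yp2 with only these 6 libraries in the fit (adjusted p = 0.0659). The yolk score, built as for complex I, was 0.48, 0.01 and 0.41 in knockdown libraries and -0.40, -0.14 and -0.37 in control libraries. The score of 7 fat body markers, Yp1 among them, was 0.32, -0.22 and 0.34 in knockdown libraries and -0.20, 0.07 and -0.31 in control libraries, and its part in the yolk values was not tested. Vm26Aa, a vitelline membrane protein, was at 67.1, 49.9 and 88.1 scaled FPKM in knockdown libraries and at 2.15, 4.68 and 24.1 in control libraries. Its call (3.14 ± 0.91, adjusted p = 0.0292) was lost without any knockdown library or control replicate 1 or 2 (adjusted p 0.0509 to 0.122). In normoxia Vm26Aa averaged 287 scaled FPKM in knockdown flies and 299 in control flies, above the means of 68.4 and 10.3 at 2% O2. Of 13 vitelline membrane genes 2 were called higher and 0 lower (15.4%, against 20.2% of all genes). Of 11 chorion genes 0 were called by limma and 0 had an unadjusted p under 0.05.

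On the log2 scale the largest called rises, knockdown above control at 2% O2, were in CG11619, CG32198, CecA1 and Vm26Aa, the last pair described above. CG11619 (3L:18985905-18988323) was at 22.6, 15.1 and 35.9 scaled FPKM in knockdown libraries and at 0.877, 1.53 and 1.14 in control libraries. Non-overlap of the groups was part of the rule that picked these genes. The means of CG11619 differed 20.8-fold (log2 difference 3.48 ± 0.22, limma adjusted p = 1.42e-07). CG34256 (3L:18988736-18989815), which begins just beyond it, averaged 17.3 scaled FPKM in knockdown flies and 1.34 in control flies (2.91 ± 0.28, adjusted p = 9.87e-06). The genotype differences of both were larger than in normoxia, by 2.76 ± 0.31 (adjusted p = 0.000221) and 2.32 ± 0.40 (adjusted p = 0.00342). CG12506 (2L:773547-774017) was at 13.9, 8.58 and 13.8 scaled FPKM in knockdown libraries and at 0.937, 0.195 and 0.804 in control libraries (2.99 ± 0.21, adjusted p = 3.45e-07). In normoxia and at 6% O2 its means were at or below 0.244 scaled FPKM in both genotypes.

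Others of the largest rises behaved differently across oxygen levels. CG32198 averaged 40.5 scaled FPKM in knockdown flies and 2.88 in control flies at 2% O2 (log2 difference 3.39 ± 0.50, limma adjusted p = 0.000548). It was also higher in normoxia (3.21, adjusted p = 0.00195), with means of 85.5 in knockdown flies and 9.63 in control flies. otk2, a receptor-like protein that binds Wnt ligands, averaged 14.7 and 2.08 (2.33 ± 0.13, adjusted p = 6.79e-08) and was higher in normoxia as well (1.93, adjusted p = 5.22e-07). CG32302 averaged 46.1 scaled FPKM in knockdown flies and 6.91 in control flies (2.60 ± 0.52, adjusted p = 0.00379), with a normoxia difference of -0.44. The non-coding CR45033 (3R:5269081-5269507) rose by 2.20 ± 0.33 (adjusted p = 0.00037), but it lies inside the end of Hph (3R:5257037-5269507), so its reads and those of Hph cannot be told apart with confidence. The small nuclear RNA snRNA:U2:34ABa also read higher (2.33 ± 0.49, adjusted p = 0.0049, and 0.0585 with only these 6 libraries in the fit), although such RNAs have no poly(A) tail and are poorly sampled by poly-dT beads.

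The largest falls besides those above were in phu, CG43055, CG3739, CG11741 and CG13091. phu was at 0.872, 0.861 and 0.627 scaled FPKM in knockdown libraries and at 7.19, 5.00 and 7.49 in control libraries (log2 difference -2.07 ± 0.46, limma adjusted p = 0.007). CG43055 (2L:4411155-4411824) averaged 4.45 scaled FPKM in knockdown flies and 19.5 in control flies (-1.93 ± 0.32, adjusted p = 0.000904). It was also lower in normoxia (-1.35, adjusted p = 0.014), as was ND-B8 (-2.04, adjusted p = 0.00682), which lies close to it (2L:4454626-4455207). Both were lower at 6% O2 too (-1.27 and -2.21, adjusted p = 0.0146 and 0.0033). CG13091 averaged 15.7 and 51.2 (-1.68 ± 0.24, adjusted p = 0.000303). CG3739 (-1.78 ± 0.23, adjusted p = 0.000108) and CG11741 (-1.69 ± 0.24, adjusted p = 0.000198) were low throughout, with means at or below 7.76 scaled FPKM in all 6 groups.

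The genotype difference turned round between oxygen levels for a few genes. CG3819 (3L:18920430-18922108) was at 14.1, 12.5 and 20.9 scaled FPKM in knockdown libraries at 2% O2 and at 6.25, 5.00 and 7.23 in control libraries (log2 difference 1.21 ± 0.29, limma adjusted p = 0.0102). In normoxia it averaged 4.70 in knockdown flies and 24.2 in control flies (-2.18, adjusted p = 0.000639), and the 2 differences differed by 3.39 ± 0.42 (adjusted p = 0.000502). Its neighbour CG6839 (3L:18917581-18919259) had the same pattern, 1.08 ± 0.31 at 2% O2 (adjusted p = 0.0234) and -2.21 in normoxia (adjusted p = 0.000756). The 2% O2 call of CG6839 was lost without control replicate 1 (adjusted p = 0.0592), control replicate 2 (adjusted p = 0.077) or knockdown replicate 3 (adjusted p = 0.0901). The tetraspanin Tsp42Eb was higher at 2% O2 (1.33 ± 0.28, adjusted p = 0.00521) and lower in normoxia (-1.22, adjusted p = 0.0129). CG8562 and CG31681 went the other way, lower at 2% O2 (-1.65 ± 0.16 and -1.39 ± 0.18, adjusted p = 1.19e-05 and 0.000108) and higher in normoxia (0.55 and 0.59, adjusted p = 0.0321 and 0.0359).

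**Figure D5:**
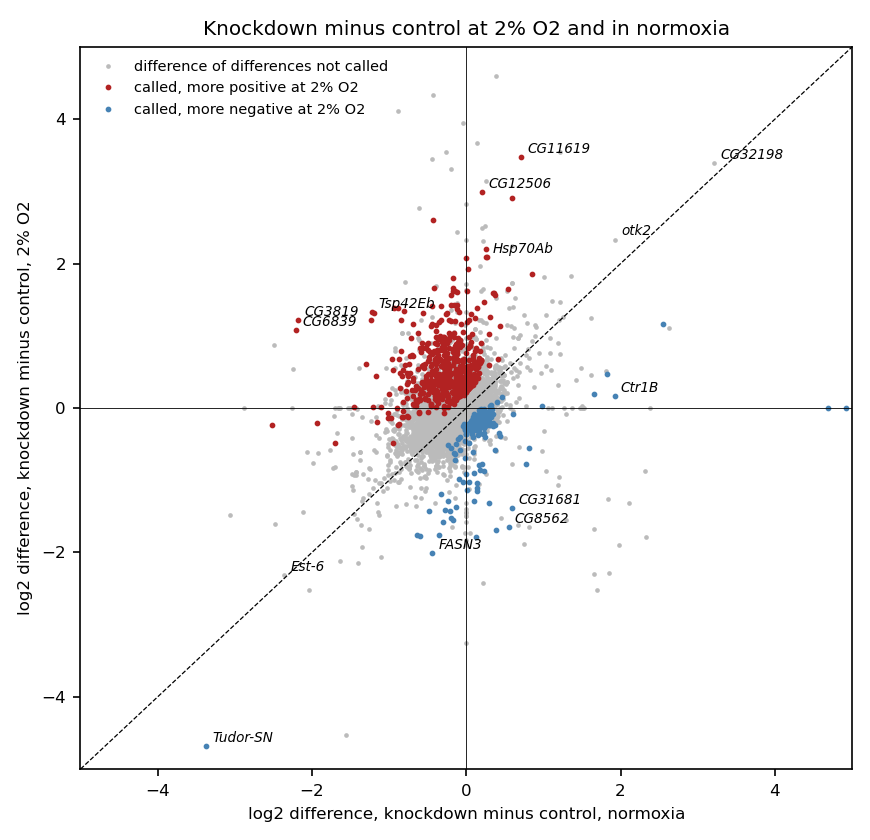
Log2 difference between knockdown and control flies at 2% O2 (y axis) against the same difference in normoxia (x axis) for all genes tested, coloured where the difference between the 2 was called. The 539 genes more positive at 2% O2 and the 219 more negative lie off the diagonal, and CG3819 and CG6839 lie high at 2% O2 and low in normoxia.

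The genotype comparisons at 2% O2, 6% O2 and in normoxia share no libraries. Of the 1157 genes higher in knockdown flies at 2% O2, 156 were also higher in normoxia, which is 13.5% of these and 26.7% of the 585 genes higher in normoxia (5.9% of all genes tested). Of the 843 lower genes 316 were lower in normoxia too, 37.5% of these and 31.5% of the 1004 lower in normoxia (10.1%). In normoxia 36.8% of called genes were higher in knockdown flies, and 53.7% after quantile normalisation. At 6% O2 1194 of the 9921 genes tested were higher and 1254 lower, 24.7% for both directions together. Of these, 322 higher genes (27.8% of those at 2% O2 and 27.0% of those at 6% O2) and 320 lower genes (38.0% and 25.5%) were shared with 2% O2. At all 3 oxygen levels 102 genes were higher and 189 lower in knockdown flies. In the opposite direction, 44 genes higher at 2% O2 were lower in normoxia and 15 lower ones were higher there. Against 6% O2 these counts were 87 and 8.

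Markers of other tissues gave these summed levels beside the comparison. The 7 fat body markers tested summed to 1250, 864 and 1300 scaled FPKM in knockdown libraries and to 681, 943 and 669 in control libraries, which overlap, and 0 of them were called by limma (3 at an unadjusted p under 0.05). Digestive proteases summed to 6400, 6430 and 7970 in knockdown libraries and to 5970, 6020 and 6590 in control libraries. Neuronal markers summed to 412, 392 and 474 in knockdown libraries and to 479, 473 and 545 in control libraries. Photoreceptor markers summed to 3230, 3240 and 3550 in knockdown libraries and to 3430, 3270 and 3680 in control libraries, and hemocyte markers to 61.6, 61.0 and 77.7 against 54.7, 55.6 and 65.0. In each of these lists the knockdown and control sums overlapped, but sums mostly follow the most abundant members. Of 30 photoreceptor markers 2 were called higher and 6 lower, and of 30 neuronal markers 0 and 3. The counts were 4 and 1 of 32 digestive proteases and 1 and 0 of 8 hemocyte markers. The shares called were 26.7%, 10.0%, 15.6% and 12.5% in this order, against 20.2% of all genes. All knockdown values lay below all control values for 15 photoreceptor markers and above them for 4. These counts were 5 and 0 for neuronal markers, 6 and 11 for digestive proteases and 0 and 2 for hemocyte markers. Of all genes tested 35.1% were without overlap in either direction. The part of these tissues in the other results was not tested.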

How the data were processed

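Per the labels' protocols, RNA of whole flies was selected on poly-dT beads and read on a BGISEQ-500. The authors deposited FPKM for 17658 genes per library, made on build BDGP6 with TopHat2, HTSeq and Cufflinks named, per the submitters' processing notes, with versions not given in the sources used here. FPKM is relative to all other transcripts of a library, and Cufflinks divides reads among overlapping or near-identical genes. Strand handling is not stated. All 38 mitochondrial-genome genes are listed at 0 in every library, so a 0 may be a failed estimate. Gene coordinates are as deposited, counted from 1, and 17303 were identical in the reference annotation. Relative depth came from 31 to 45 genes per 2% O2 library whose values above 0 lay close together and were each taken as about 1 read.

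Each library was scaled by the median ratio of its FPKM to the geometric mean over libraries, from 9068 genes above 1 FPKM throughout. Tests covered the 9921 genes whose mean over the 18 libraries reached 1 FPKM. The model was limma 3.58.1 (R 4.3.3) on log2(scaled FPKM + 1), with a mean for each of the 6 groups, eBayes (trend, robust) and Benjamini-Hochberg adjustment within each comparison, and it was tested on simulated data. The labels call the replicates biological triplicates. The alternatives changed the pseudocount (0.1 or 5), the filter (none, or 5 FPKM), the scaling (none, or quantile normalisation), the model (a replicate block, only the groups compared, plain eBayes, array weights) or left out each library in turn. Leaving out loci under 300 bp was chosen after seeing the data.

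The 63 gene lists, and the genes and comparisons, were chosen with earlier results of these data known. Genes named are Tudor-SN, fixed genes, the 12 largest separated and called changes each way with a higher mean of at least 2 scaled FPKM, the 6 largest called differences each way between 2% O2 and normoxia, and up to 4 called members per list.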

Additional observations from a re-analysis of the deposited data

Results flagged for a closer look

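The knockdown-minus-control difference at 2% O2 was set against that in normoxia in 1 limma fit, which tests the difference between the 2 directly. It was called for 758 genes, and for the genes below, whose values are log2 differences of differences, 2% O2 minus normoxia. Each was called at a Benjamini-Hochberg adjusted p under 0.05, and a positive value means that knockdown flies stood higher relative to control flies at 2% O2 than in normoxia. The call of DnaJ-1 lay close to that limit (limma adjusted p = 0.0499). Whether the calls of single genes below held under the alternatives was not tested. With 1 library left out the count of 758 ran from 332 to 1302.

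Chaperone genes were more positive at 2% O2: Hsp70Aa (1.83), Hsp70Ab (1.83), Hsp70Ba (1.61), Hsp70Bb (1.11), Hsp70Bc (1.72), Hsp22 (1.40), Hsp23 (1.56), Hsp67Bc (1.41), stv (1.74) and DnaJ-1 (0.32). So were genes of redox defence and detoxification: GstD3 (0.31), GstD5 (1.83), GstD9 (0.71), GstE1 (0.86), GstE3 (1.88), GstE6 (0.26), GstE7 (0.96), Prx2540-1 (1.25), Prx2540-2 (1.24), Gclm (0.25), ref(2)P (0.29), Cyp12d1-p (1.54) and Cyp12d1-d (1.54). Among genes of the oxygen response and tracheal signalling these were ImpL3 (1.23), Pdk (0.56), Hph (0.33), bnl (1.10) and sty (0.97).

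Stress and immune signalling genes more positive at 2% O2 were Jra (0.36), puc (0.48), Ets21C (1.03), Gadd45 (1.02), Socs36E (1.16), pirk (1.5) and imd (0.72). Metabolic and iron genes were Mdh1 (0.29), AGBE (0.43), bmm (0.34), Lpin (0.51), Fer1HCH (0.49), Fer2LCH (0.57), ade2 (0.61), pug (0.77) and Adgf-D (1.02). Genes of translation were RpL37A (0.32) and eIF3g1 (0.25).

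Positive values were also found for named genes outside these groups, CG3819 (3.39), CG6839 (3.29), CG32302 (3.04), CG12506 (2.79), CG11619 (2.76), Tsp42Eb (2.54), CG34256 (2.32) and CR45033 (1.94). CG6839 lost its call at 2% O2 itself without control replicate 1, control replicate 2 or knockdown replicate 3, as given above.

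Tudor-SN and genes of fatty acid synthesis and their neighbour CR44035 were more negative at 2% O2: Tudor-SN (-1.32), FASN3 (-1.56), CG16904 (-1.41), CG9458 (-1.38), CG9459 (-1.17), FarO (-1.12) and CR44035 (-1.60). Other genes more negative at 2% O2 were CG8562 (-2.20), CG11741 (-2.07), CG31681 (-1.98), CG3739 (-1.90), Ctr1B (-1.76), Cyp6a18 (-1.05), tral (-0.51) and Idh (-0.21). For Ctr1B the genotypes differed in normoxia and not by this test at 2% O2.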

How the results depend on the processing

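The comparison at 2% O2 called 2000 genes, 3898 with array weights and 1204 with only the groups compared. Leaving out 1 library gave 1204 to 1979. Normoxia called 1589 genes, 3414 with array weights and 614 to 2235 with 1 library left out. At 6% O2 2448 genes were called, 1354 with only the groups compared and 892 to 2735 with 1 library left out. The difference of differences against normoxia called 758 genes, 2371 with array weights and 332 to 1302 with 1 library left out. That against 6% O2 called 934, 1993 with array weights, 572 with only the groups compared and 392 to 1376 with 1 library left out. The cause was not tested, except that fewer libraries enter some of these fits. Higher calls among the 758 were 71.1%, against 58.8% with FPKM as deposited, 44.8% with quantile normalisation and 83.8% with only the groups compared. At 2% O2 the higher share was 57.9%, and 67.0% with only the groups compared. With only the groups compared, calls at 2% O2 were also lost for CecA1 (adjusted p = 0.167), Vm26Aa (0.1), CG6839 (0.0557), eloF (0.128), Mf (0.196), pasha (0.0954), AGO2 (0.0902), pcm (0.108) and tral (0.0966), and of muscle markers 0 were called.

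Directions turned for a few results, and the cause was not tested. With 1 library left out, the log2 difference of TotA ran from -0.138 to 1.22, turning without control replicates 1 (-0.138) and 2 (-0.021) and knockdown replicate 2 (-0.08), and that of Ctr1B from -0.055 (without knockdown replicate 3) to 0.343. Neither was called with all libraries. The balance of higher and lower calls turned for amino acid and purine genes (9 called with a pseudocount of 5, a mean of 5 FPKM, FPKM as deposited or without loci under 300 bp, and 10 with quantile normalisation), ribosomal proteins (3 with quantile normalisation), silencing genes (7 with array weights) and stress-granule genes (1 with only the groups compared). With 1 library left out it turned for some libraries in P450 genes (13 to 22 called), detoxification genes (6 to 10), fatty acid synthesis (2 to 7), silencing genes (0 to 4), stress-granule genes (3 to 7) and muscle genes (1 to 10).

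The replicate numbers did not pair the libraries: knockdown and control deviations of the same number correlated at 0.04, -0.33 and 0.07. With a replicate block 1987 genes were called at 2% O2 and 726 in the difference against normoxia, and Yp2 was not called (adjusted p = 0.0634). Of the 112 genes named that were called at 2% O2, 100 kept that call whichever 2% O2 library was left out and 89 under every alternative run. Most of these were named for a small p or a large change in the same data. Their share thus does not speak for called genes in general, whose count fell from 2000 to 1204 without control replicate 1. Depth limits low genes most in knockdown replicate 3. CR45033 was not called with a pseudocount of 0.1, nor phu with 5.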
